A study of Mus musculus with 18 samples.

Results

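Transcripts of 9 mouse genes were followed, 6 that encode inhibitors of cyclin-dependent kinases (CDKs) and 3 that encode the retinoblastoma family of pocket proteins. The inhibitors were Cdkn1a, Cdkn1b, Cdkn2a, Cdkn2b, Cdkn2c and Cdkn2d, and the pocket protein genes were Rb1, Rbl1 and Rbl2. They were chosen by name, and all 9 were measured among the 18820 genes that had a probe set with 1 gene symbol; where a gene had several, its brightest probe set on average was read. RNA came from clone C2, a line of mouse embryonic fibroblasts transformed with a human c-MYC retrovirus (iMEFs), and was measured on 18 Affymetrix mouse gene arrays. By the study's methods, the iMEF clone was drawn by limiting dilution from cells with 1 floxed and 1 deleted allele of Ezh2, and Cre fused to a modified estrogen receptor, expressed from the ROSA26 locus, removed the floxed allele after tamoxifen. All groups therefore shared c-Myc, the Cre transgene and descent from 1 clone.

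A time course held vehicle-treated cells (ethanol) and cells at day 5, day 18 and day 32 after tamoxifen, with 2 arrays in each of the 4 groups. A rescue experiment held control cells labelled Ezh2 WT, Ezh2 -/- cells (called Ezh2 null here), and 3 groups given an enzyme by retrovirus, again with 2 arrays in each of the 5 groups. In Ezh1 pre-rescue and Ezh2 pre-rescue the Flag-tagged enzyme was put in before endogenous Ezh2 was deleted, and in Ezh2 post-rescue afterwards. Whether control and Ezh2 null cells carried an empty virus is not given in the sources used here. The time course has 1 vehicle group for 3 times, so time after tamoxifen, the drug itself and time in culture cannot be told apart there. The study calls its array replicates biological, but neither it nor the labels say whether they were separate cultures, and the p-values cover only how far these samples spread. Levels are log2 RMA values, changes are differences of log2 means with their standard errors (n = 2 arrays a group), and calls rest on an adjusted p under 0.05, whatever the fold (limma, two-sided, Benjamini-Hochberg across the 18820 genes).

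As background, CDKs bound to cyclins drive cells from G1 into S phase by phosphorylating the pocket proteins, which otherwise hold E2F transcription factors in check. The CIP/KIP inhibitors, encoded by Cdkn1a (p21) and Cdkn1b (p27), bind cyclin-CDK complexes broadly, whereas the INK4 inhibitors, encoded by the Cdkn2 genes, bind CDK4 and CDK6. In fibroblasts the locus of Cdkn2a and its neighbour Cdkn2b is a classic target of Polycomb silencing: Ezh2 and Ezh1 are the catalytic subunits of PRC2, which methylates H3K27, and the locus is known to be derepressed as fibroblasts age in culture.

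The level of Ezh2 itself could not check the deletion. The Ezh2 probe set differed from control by 0.01 ± 0.173 in Ezh2 null cells (adjusted p = 0.99), and after tamoxifen it was at −0.16 ± 0.084 at day 5 (adjusted p = 0.259) and called higher at day 18 (0.32, adjusted p = 0.02) and day 32 (0.38 ± 0.084, adjusted p = 0.0068). With centred arrays it was called lower at day 5 (−0.30, adjusted p = 0.0313) and not called at day 18. The state of the gene is therefore taken from the labels. Ezh1 fell by 0.63 at day 18 and by 0.99 ± 0.077 at day 32 (1.98-fold lower). The enzymes put in by retrovirus read above Ezh2 null cells as labelled: Ezh1 by 2.41 ± 0.157 in Ezh1 pre-rescue (adjusted p = 0.00162), and Ezh2 by 1.58 ± 0.173 in Ezh2 pre-rescue (adjusted p = 0.00614) and by 1.86 ± 0.173 in Ezh2 post-rescue (adjusted p = 0.0109). The experiments were normalized apart, with array medians of 4.98 to 5.08 (time course) and 6.16 to 6.27 (rescue), and levels are compared only within each. Replicates were farthest apart in the control group, with a median absolute difference over genes of 0.131 against 0.0805 to 0.106 in the other groups. Fibroblast identity was checked with 10 markers, of which 8 lay above the array median on all 18 arrays; Thy1 lay below it on all arrays and Lum on some. Of these 10, 4 were called higher and 1 lower at day 5. By day 18 the split was 1 higher and 4 lower, and by day 32 there were 5 lower, of which Lum, a proteoglycan of the matrix, had fallen by 3.57 ± 0.123 (11.9-fold). With centred arrays the day 5 split was 2 higher and 3 lower. Lum was also lower in Ezh2 null cells than in control (−1.0 ± 0.159, adjusted p = 0.0258), and against Ezh2 null cells 2 fibroblast markers were higher in Ezh1 pre-rescue, 4 in Ezh2 pre-rescue and 0 in post-rescue by limma, with 5 at an unadjusted p under 0.05. Of 7 blood cell markers Lyz2 alone was called against vehicle, higher at each time, at day 5 on the deposited scale only. Of 3 endothelial markers Pecam1 alone was called against vehicle, at day 5 and day 32. Ptprc, Cdh5 and Epcam, the defining markers of blood, endothelial and epithelial cells, lay below the median on all arrays. Other markers of blood and epithelial cells did not all do so. Cd68 lay above it on all arrays, Lyz2 and Krt8 on some arrays of each experiment, and Cd14 on some of the time course. Of the embryonic stem cell markers, Pou5f1 lay below it on all arrays. Nanog lay above it on some time course arrays and all rescue arrays, and Zfp42 on some rescue arrays. The part of these markers in the results was not tested.

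The promoter windows of the members are shown first because the family holds well-known targets of p53 and of E2F. Windows of 250 bases before and 50 bases after each annotated start came from RefSeq (GRCm38.p6), and 8 of the 9 members had at least 1; no window was at hand for Rb1. The E2F letters searched on both strands were TTTCGCGC, TTTGGCGC, TTTCCCGC and TTTGCCGC, present in 2.26% of all 32851 windows. The p53 motif was the published consensus of 2 half-sites with at most 13 bases between them, present in 0.0731% of windows. Shown are the 250 bases before the upstream start of Cdkn1a (chr17:29090729-29090978, plus strand), before the upstream start of Cdkn2a, from which the p19Arf transcript begins (chr4:89294620-89294869, minus strand), before Cdkn2b (chr4:89311033-89311282, minus strand) and before Rbl1 (chr2:157204535-157204784, minus strand). Capitals mark the 2 half-sites of the p53 match in Cdkn1a and the E2F match in Cdkn2a and Rbl1, and the Cdkn2b window held neither. The bases tgacatgttc, directly after these half-sites in Cdkn1a, miss the half-site pattern at their first base only and stay in lower case.
Cdkn1a: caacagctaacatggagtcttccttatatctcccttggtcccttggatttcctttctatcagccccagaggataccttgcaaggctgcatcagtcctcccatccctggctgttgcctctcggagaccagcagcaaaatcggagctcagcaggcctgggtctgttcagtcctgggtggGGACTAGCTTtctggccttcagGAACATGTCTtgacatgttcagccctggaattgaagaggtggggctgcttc
Cdkn2a: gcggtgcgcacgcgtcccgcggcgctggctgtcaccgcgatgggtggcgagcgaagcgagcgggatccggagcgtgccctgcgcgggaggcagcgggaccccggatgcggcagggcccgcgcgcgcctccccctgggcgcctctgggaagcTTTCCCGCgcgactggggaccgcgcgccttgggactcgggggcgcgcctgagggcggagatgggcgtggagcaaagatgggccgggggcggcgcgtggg
Cdkn2b: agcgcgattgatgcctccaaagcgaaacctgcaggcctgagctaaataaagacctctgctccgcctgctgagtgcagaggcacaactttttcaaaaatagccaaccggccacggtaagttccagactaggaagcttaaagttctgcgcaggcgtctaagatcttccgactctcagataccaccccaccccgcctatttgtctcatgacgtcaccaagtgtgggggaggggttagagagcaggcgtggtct
Rbl1: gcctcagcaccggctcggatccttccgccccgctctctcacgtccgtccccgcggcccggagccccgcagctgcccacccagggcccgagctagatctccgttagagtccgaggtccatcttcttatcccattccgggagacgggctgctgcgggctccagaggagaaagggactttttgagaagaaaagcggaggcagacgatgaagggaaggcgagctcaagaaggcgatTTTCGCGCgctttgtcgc
Counted from the start of transcription, the matches began at −73 in Cdkn1a, −99 in Cdkn2a and −18 in Rbl1. The windows at the downstream starts of Cdkn1a and Cdkn2a held no p53 or E2F match. Neither did those of Cdkn1b, Cdkn2c, Cdkn2d and Rbl2. The cell cycle homology region, TTTGAA, matched in the windows of Cdkn2b and Rbl2 and in 17.9% of all windows, and the E-box CACGTG matched in a Cdkn2c window and in 7.15% of all. These matches describe letters in a window and were not tested for binding.

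In the time course Cdkn1b and Rb1 were called against vehicle at none of the 3 times on the deposited scale. At day 5, 2 members were called higher (Cdkn1a and Rbl2) and 1 lower (Cdkn2a), against 11.0% of all genes higher and 5.72% lower. At day 18, 4 were higher (Cdkn1a, Cdkn2c, Cdkn2d and Rbl1) and 1 lower (Cdkn2b), with 15.2% and 10.5% of all genes, and at day 32 the same 4 were higher while Cdkn2b and Rbl2 were lower, with 18.4% and 14.2%. The 3 comparisons share the vehicle arrays. The median change of the 9 members was −0.08, −0.03 and −0.03 at the 3 times, beside −0.01, −0.02 and −0.02 over all genes. Between day 5 and day 18, 4 members were higher (Cdkn2a, Cdkn2c, Cdkn2d and Rbl1) and 2 lower (Cdkn2b and Rbl2), against 15.6% and 16.1% of all genes. Between day 18 and day 32 only Cdkn2b was called, lower, where 1.40% of all genes were higher and 2.75% lower. Centring each array on its median moved the median of all genes by −0.15 at day 5, −0.16 at day 18 and −0.12 at day 32. Small changes at these times therefore depend on the scale. Calls of members gained or lost with centred arrays are marked, and those of other genes only in part. Centring turned the balance at day 5 to 1 member higher (Cdkn1a) and 5 lower (Cdkn2a, Cdkn2b, Cdkn2c, Cdkn2d and Rbl1), with 6.47% of all genes higher and 21.9% lower. For day 18 it left 3 members higher and 4 lower (9.63% and 32.7% of all genes), and for day 32 it left 3 of each (13.4% and 26.6%). With quantile normalization the day 5 arrays gave 2 members higher and 3 lower (8.73% and 8.38% of all genes). Each late time gave 4 higher and 2 lower, with 13.3% and 13.5% of all genes at day 18 and 16.9% and 16.8% at day 32.

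**Figure D1:**
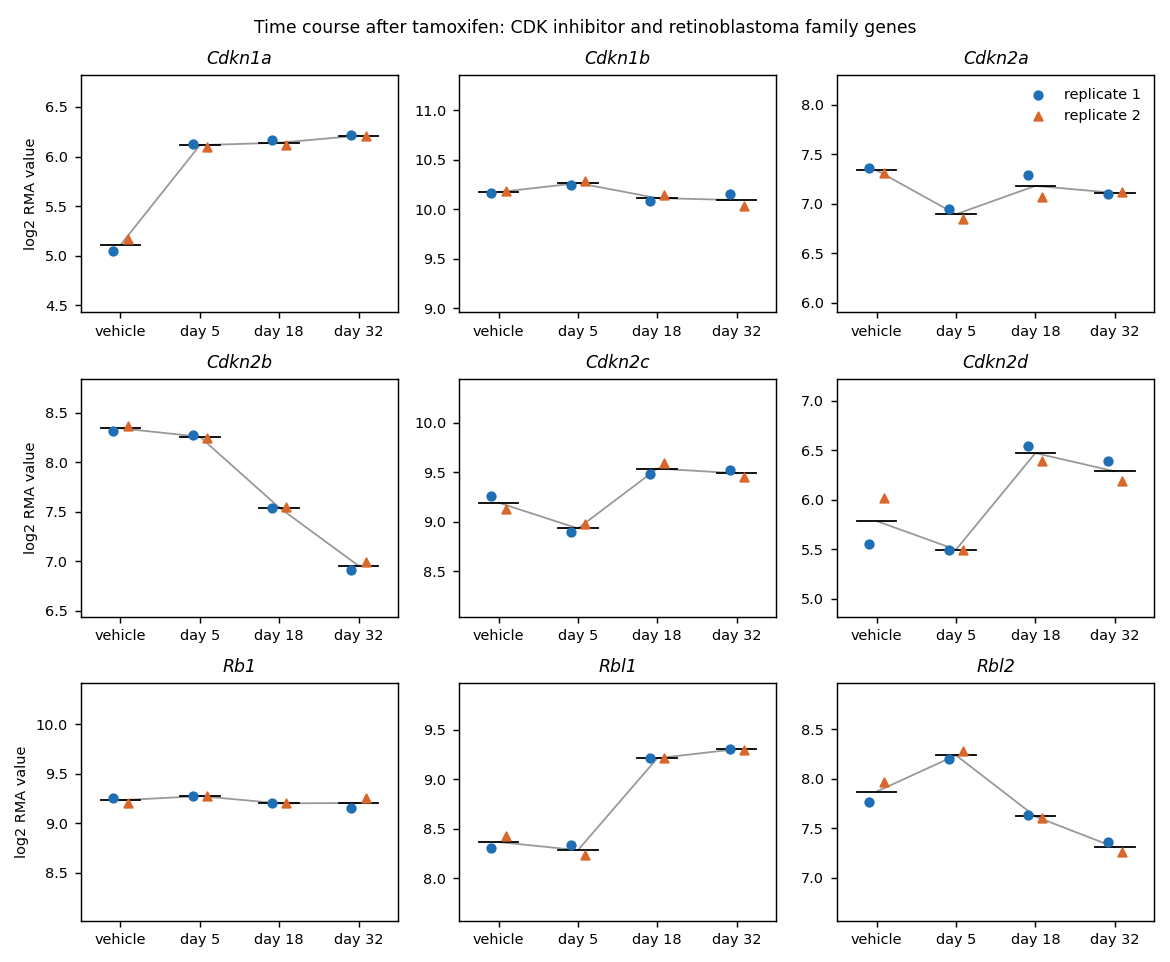
Log2 RMA values (y axis, panels of equal span) for each of the 9 genes; the x axis gives the 4 time course groups. There is 1 point per array, a bar at each group mean and a line joining the means. Cdkn1a is near 5.1 on vehicle and above 6 at all 3 times, Cdkn2b falls from above 8.3 to below 7, Rbl1 steps up between day 5 and day 18, and Cdkn1b and Rb1 stay nearly level.

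Among the CIP/KIP genes, Cdkn1a was at its late level by day 5. Vehicle arrays gave 5.04 and 5.17, day 5 gave 6.13 and 6.10, day 18 gave 6.16 and 6.11, and day 32 gave 6.21 on both arrays. The vehicle values lie close to the median of their arrays, and all 6 treated arrays lie above both of them. Cdkn1a rose by 1.01 ± 0.075 at day 5 (2.01-fold, adjusted p = 3.97e-05), by 1.03 ± 0.075 at day 18 and by 1.10 ± 0.075 at day 32 (2.15-fold, adjusted p = 5.65e-06). Day 18 differed from day 5 by 0.03 ± 0.075 (adjusted p = 0.852) and day 32 from day 18 by 0.07 ± 0.075 (adjusted p = 0.687). In a bulk array a larger share of cells with the transcript and more transcript per cell cannot be told apart.

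Cdkn1b, whose product p27 is controlled largely through its breakdown, was not called in any comparison. Its 8 values in the time course lay between 10.03 and 10.29, and its changes from vehicle were 0.09 ± 0.075 at day 5, −0.06 ± 0.075 at day 18 and −0.08 ± 0.075 at day 32. A second Cdkn1b probe set also gave no call, with changes between −0.07 and −0.02. With centred arrays Cdkn1b was called lower at day 18, at −0.22 (adjusted p = 0.0446). Cdkn1c, the third gene of the CIP/KIP family, lay below the array median on all 8 arrays, between 4.20 and 4.65, and was not called on the deposited scale. It was called lower at day 18 and day 32 with centred arrays, and at day 32 with quantile normalization.

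The INK4 genes moved apart from each other. Cdkn2b, which encodes p15Ink4b, read 8.31 and 8.37 on vehicle, then 8.27 and 8.24 (day 5), 7.53 and 7.55 (day 18), and 6.91 and 6.99 (day 32). The arrays of each late time lie below those of the time before, with no overlap. Cdkn2b fell by 0.80 ± 0.071 at day 18 (1.74-fold lower, adjusted p = 4.24e-05) and by 1.39 ± 0.071 at day 32 (2.62-fold lower, adjusted p = 1.06e-06), and by 0.59 ± 0.071 between day 18 and day 32 (adjusted p = 0.00282). Its change at day 5 was −0.09 ± 0.071 (adjusted p = 0.481). With centred arrays the day 5 value was −0.23 and was called lower (adjusted p = 0.0372).

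Cdkn2a, on the same chromosome next to Cdkn2b, did not share that decline. The gene gives p16Ink4a and p19Arf from separate first exons, and 1 probe set read the gene, so the transcripts were not told apart. Its vehicle arrays gave 7.36 and 7.31, those of day 5 gave 6.94 and 6.84, those of day 18 gave 7.29 and 7.07, and those of day 32 gave 7.10 and 7.12. The day 5 arrays are the lowest of the 8, and those of every tamoxifen group lie below both vehicle arrays. Cdkn2a fell by 0.44 ± 0.089 at day 5 (1.36-fold lower, adjusted p = 0.00867). The changes at day 18 and day 32 were −0.16 ± 0.089 (adjusted p = 0.238) and −0.23 ± 0.089 (adjusted p = 0.081), and both were called lower with centred arrays, at −0.31 (adjusted p = 0.0299) and −0.35 (adjusted p = 0.0194). The day 5 call was lost without vehicle replicate 1 (adjusted p = 0.0508) or day 5 replicate 2 (adjusted p = 0.0659). Day 18 was 0.29 ± 0.089 above day 5 (adjusted p = 0.0353), a call lost with centred arrays (adjusted p = 0.057), with these 2 groups alone (adjusted p = 0.0682), without either day 5 array (adjusted p = 0.0614 and 0.179) and without day 18 replicate 1 (0.17, adjusted p = 0.252). Of the other genes beside the locus, Mtap, an enzyme of methionine salvage, read between 9.80 and 10.16. It was not called on the deposited scale but was called lower at day 5 with centred arrays. Dmrta1, a transcription factor gene, read between 2.83 and 3.70, below the array medians throughout, and was called higher at day 18 (0.48 ± 0.131) and day 32 (0.62 ± 0.131). Its day 18 call was lost with centred arrays.

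Cdkn2c and Cdkn2d, which encode p18Ink4c and p19Ink4d, were higher late in the course. Cdkn2c read 9.26 and 9.13 on vehicle, then 8.89 and 8.98 (day 5), 9.48 and 9.60 (day 18), and 9.53 and 9.46 (day 32). Cdkn2d read 5.55 and 6.02, then 5.50 and 5.49, 6.55 and 6.39, and 6.39 and 6.19 in the same groups. In both genes the day 5 arrays are the lowest of the 8 and the 4 late arrays lie above all vehicle arrays. Cdkn2c rose by 0.34 ± 0.082 at day 18 (adjusted p = 0.013) and by 0.30 ± 0.082 at day 32 (adjusted p = 0.0204). Both calls were lost with centred arrays, at 0.19 (adjusted p = 0.1) and 0.18 (adjusted p = 0.125), and also without vehicle replicate 2 (0.28, adjusted p = 0.066, and 0.23, adjusted p = 0.101). The day 18 call was lost without day 18 replicate 2 (adjusted p = 0.0986), and the day 32 call without day 32 replicate 1 (adjusted p = 0.118) or replicate 2 (adjusted p = 0.0542). Cdkn2d rose by 0.69 ± 0.140 at day 18 (adjusted p = 0.00567) and by 0.50 ± 0.140 at day 32 (adjusted p = 0.0207). Its vehicle arrays are 0.46 apart. The day 32 call was lost without the lower of them, replicate 1 (0.27, adjusted p = 0.121), without day 32 replicate 1 (0.40, adjusted p = 0.135), and with these 2 groups alone (adjusted p = 0.0502). Against day 5, day 18 was higher by 0.60 ± 0.082 in Cdkn2c (adjusted p = 0.000394) and by 0.97 ± 0.140 in Cdkn2d (adjusted p = 0.000529). At day 5 the changes from vehicle were −0.26 ± 0.082 for Cdkn2c (adjusted p = 0.0612) and −0.29 ± 0.140 for Cdkn2d (adjusted p = 0.207), and both were called lower with centred arrays, at −0.41 and −0.44.

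Of the pocket protein genes Rb1, the founding member, was flat in the time course. Its 8 values lay between 9.16 and 9.27, with changes of 0.04 ± 0.071, −0.03 ± 0.071 and −0.03 ± 0.071 from vehicle at the 3 times. Rbl1, which encodes p107, is itself a known E2F target, and its window above holds an E2F match. It read 8.31 and 8.42 on vehicle, then 8.33 and 8.24 (day 5), 9.21 on both arrays (day 18), and 9.31 and 9.30 (day 32). The 4 late arrays stand clear of the 4 early ones. Rbl1 rose by 0.85 ± 0.075 at day 18 (1.80-fold, adjusted p = 4.24e-05) and by 0.94 ± 0.075 at day 32 (1.92-fold, adjusted p = 1.46e-05), and its change at day 5 was −0.08 ± 0.075 (adjusted p = 0.528). A second Rbl1 probe set rose at both late times, by 0.65 ± 0.119 and 0.79 ± 0.119, but it also rose at day 5, by 0.51 ± 0.119 (adjusted p = 0.0169), where the main set was called lower with centred arrays (−0.23, adjusted p = 0.0475). The step between day 5 and day 18 was 0.93 ± 0.075 on the main set and 0.14 ± 0.119 on the second (adjusted p = 0.445), so the probe sets disagree on when Rbl1 changed.

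Rbl2, which encodes p130, the pocket protein that prevails in resting cells, went the other way at the late times. On vehicle it read 7.77 and 7.97, then 8.20 and 8.28 (day 5), 7.63 and 7.60 (day 18), and 7.36 and 7.25 (day 32). The day 5 arrays are the highest and the day 32 arrays the lowest, with no overlap between groups. Rbl2 rose by 0.37 ± 0.087 at day 5 (adjusted p = 0.0189), a call lost with centred arrays (0.22, adjusted p = 0.0732), without vehicle replicate 1 (0.27, adjusted p = 0.107) and without either day 5 array (adjusted p = 0.0575 and 0.111). It was −0.25 ± 0.087 from vehicle at day 18 (adjusted p = 0.0638) and fell by 0.56 ± 0.087 at day 32 (1.48-fold lower, adjusted p = 0.000848). The day 18 value was called lower with centred arrays (−0.41, adjusted p = 0.00492). A probe set that carries the symbols of both Rbl2 and its neighbour Aktip gave 0.42 ± 0.079 at day 5 (adjusted p = 0.00646), 0.03 ± 0.079 at day 18 and −0.23 ± 0.079 at day 32 (adjusted p = 0.0495).

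The genes that the inhibitors and the pocket proteins act on or with were counted from lists. All 15 measured E2F target genes rose at day 18 and at day 32, with medians of 1.00 and 1.17 against −0.02 over all genes at each time. The replication gene Cdt1, which loads the helicase, had the greatest rise of the 15 at both times (1.34 and 1.46 ± 0.119), and Mcm10 rose by 1.25 and 1.35 ± 0.078. At day 5, 3 of the 15 fell (Rrm2, Tk1 and Rrm1, enzymes of nucleotide supply, by 0.67, 0.61 and 0.41), and 8 with centred arrays. Of 10 E2F and DP factor genes, 2 rose and 1 fell at day 5, and 9 rose at day 18 and at day 32, among them E2f7, an atypical repressor, by 1.10 ± 0.086 and 1.27 ± 0.086 and E2f2 by 0.73 and 0.78. The median change of these factors was 0.08, 0.47 and 0.61 at the 3 times. With centred arrays 2 of these factors rose and 2 fell at day 5, and 7 rose at day 18. Of 5 subunits of MuvB and B-Myb, which join Rbl1 and Rbl2 in the DREAM complex or follow it, 2 rose at day 5 (Lin54 and Lin52) and 3 at each late time, with Mybl2 up by 1.18 ± 0.072 and 1.40 ± 0.072 (medians 0.23, 0.58 and 0.69). With centred arrays 0 were called at day 5 (median 0.08) and 3 still rose at each late time.

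Of 14 cyclin and CDK genes, 3 rose and 5 fell at day 5, and 8 rose and 1 fell at day 18 and at day 32, with medians of −0.05, 0.47 and 0.44. With centred arrays these counts were the same except that 2 fell at day 18. Cdk6, a kinase that the INK4 proteins bind, rose by 1.90 ± 0.079 at day 18 and by 2.13 ± 0.079 at day 32 (adjusted p = 2.04e-07), and Ccnd2, a D-type cyclin, rose by 0.98, 1.23 and 1.22 ± 0.068 at the 3 times. Ccne1, the cyclin that acts with CDK2, rose by 0.63 and 0.86 ± 0.074 at the late times. Of 9 genes for turnover of the inhibitors, 3 fell at day 5, 5 rose at day 18, and 6 rose and 1 fell at day 32, with medians of −0.21, 0.49 and 0.54. With centred arrays 6 fell at day 5, 5 rose and 2 fell at day 18, and 5 rose and 1 fell at day 32. Skp2, the receptor of the ligase that marks p27 for breakdown, fell by 0.38 ± 0.089 at day 5 and rose by 0.90 and 1.08 ± 0.089 later, while Cdkn1b was not called.

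Of 17 regulators of Cdkn1a and Cdkn2a, 4 rose and 3 fell at day 5, and 3 rose and 7 fell at each late time, with medians of 0.12, −0.10 and −0.09. Bmi1, a Polycomb subunit known to silence the Cdkn2a locus, rose by 0.79 ± 0.080 at day 18 and 0.74 ± 0.080 at day 32. Ets2, an activator of Cdkn2a, fell by 0.55, 1.22 and 0.93 ± 0.095 at the 3 times, and Rnf2, the Polycomb ubiquitin ligase, fell by 0.49, 0.59 and 0.71 ± 0.071. Trp53 was not among the measured genes. The phosphatase gene Cdkn3, which carries the name of the inhibitors but is no binding inhibitor, fell by 0.44 ± 0.084 at day 5 and rose by 0.77 and 0.58 ± 0.084 later. Of 9 proliferation markers 7 fell at day 5, among them Bub1b (0.75 ± 0.079), and 9 rose at day 18 and at day 32, among them Birc5 (0.88 and 1.10 ± 0.070). Proliferation markers were thus higher at day 18 and day 32, the times at which both probe sets of Rbl1 were called higher. At day 5, where 7 of the markers fell (9 with centred arrays), the main Rbl1 set was not called and the second was called higher. The part of these markers in the change of Rbl1 was not tested.

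**Figure D2:**
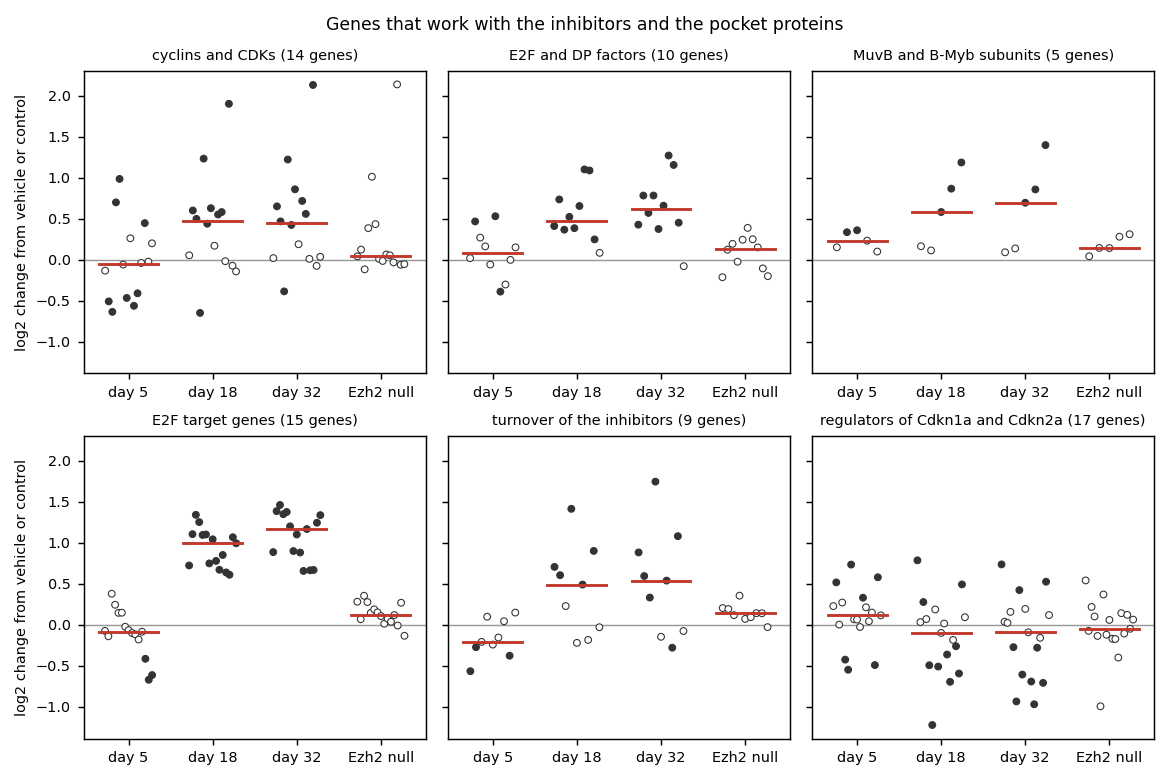
Log2 change (y axis) of each gene of 6 lists from vehicle at day 5, day 18 and day 32, and from control in Ezh2 null cells (x axis), with filled points called at an adjusted p under 0.05, open points not called and a red bar at the median. All 15 E2F target genes lie above 0 and are filled at day 18 and day 32, and no gene of the 6 lists is filled in Ezh2 null cells.

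In the rescue experiment Ezh2 null cells were compared with control cells. Cdkn1a was the 1 member called higher, against 1.20% of all genes, and 0 were called lower by limma, against 0.755%. At an unadjusted p under 0.05 there were 2 members (Cdkn1a and Rb1). Shares of all genes at an unadjusted p are not given here or below, so such counts show no excess of members. Cdkn1a read 7.27 and 6.62 in control cells and 8.25 and 7.95 in Ezh2 null cells. The groups do not overlap, but the control arrays are 0.65 apart. Cdkn1a rose by 1.15 ± 0.175 (2.23-fold, adjusted p = 0.0213). The call was lost without Ezh2 null replicate 1 (1.07, adjusted p = 0.0628) or replicate 2 (1.24, adjusted p = 0.0804), and with these 2 groups alone (adjusted p = 0.219). No gene of the 6 pathway lists was called, while 10 of their 70 entries reached an unadjusted p under 0.05. With centred arrays 1 cyclin or CDK gene was called higher, and 1 regulator higher and 1 lower. Cdk6 was 2.14 ± 0.433 above control (adjusted p = 0.0592) and Ccnd2 1.01 ± 0.280 (adjusted p = 0.135).

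**Figure D3:**
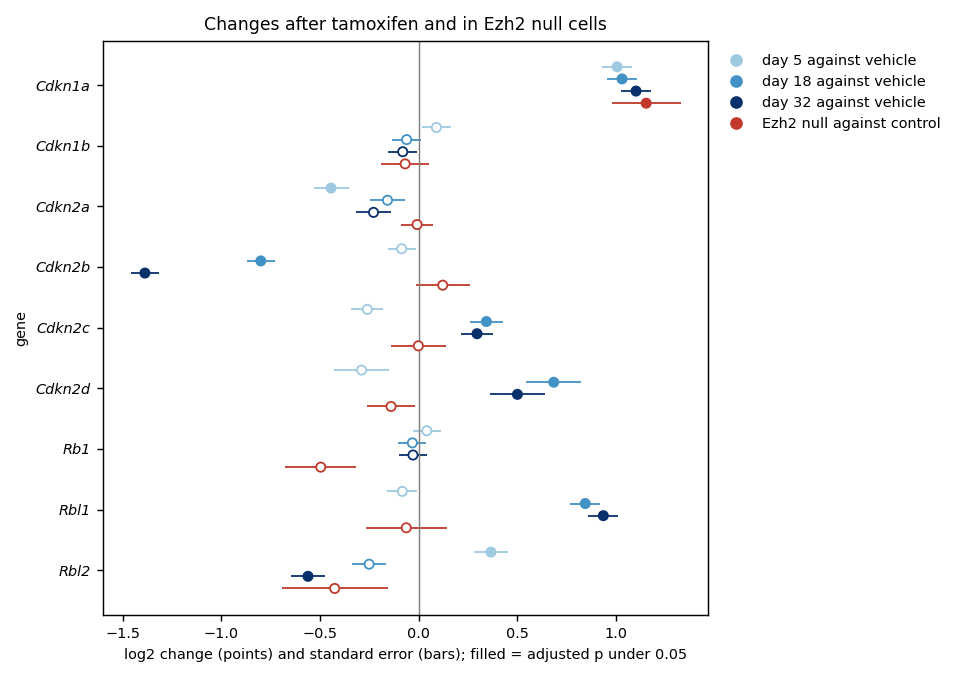
Log2 change with its standard error (x axis) of the 9 genes (y axis) at day 5, day 18 and day 32 against vehicle and in Ezh2 null against control cells; filled points passed an adjusted p of 0.05. Cdkn1a lies between 1.01 and 1.15 in all 4 comparisons, whereas Cdkn2b and Rbl1 lie far from 0 at the late times and near 0 in Ezh2 null cells.

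The other inhibitors lay near their control level in Ezh2 null cells. Cdkn2a read 8.47 and 8.44 in control and 8.40 and 8.50 in Ezh2 null cells, a change of −0.01 ± 0.081 (adjusted p = 0.98). Cdkn2b read 8.05 and 8.51 in control and 8.32 and 8.49 in Ezh2 null cells, a change of 0.12 ± 0.138 (adjusted p = 0.735). In both genes the null arrays overlap the control arrays. Cdkn1b, Cdkn2c and Cdkn2d changed by −0.07 ± 0.120, 0.00 ± 0.140 and −0.14 ± 0.120, none of them called.

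Of the pocket protein genes, Rb1 read 9.31 and 9.38 in control and 9.17 and 8.53 in Ezh2 null cells, a change of −0.50 ± 0.181 (adjusted p = 0.246). Both null arrays lie below both control arrays, but 0.64 apart. Without Ezh2 null replicate 1 the change was −0.85 and was called (adjusted p = 0.00936). Rbl1 read 9.27 and 8.87 in control and 9.35 and 8.66 in Ezh2 null cells, a change of −0.06 ± 0.205 (adjusted p = 0.919). Rbl2 read 7.91 and 8.78 in control and 8.18 and 7.66 in Ezh2 null cells, a change of −0.43 ± 0.269 (adjusted p = 0.515), which became −0.94 (adjusted p = 0.0371) without control replicate 1. The spread between replicates of 1 group was thus as large as the change for both Rbl1 and Rbl2.

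The 3 rescue groups asked whether a methyltransferase present before or after the deletion kept the members at the control level. Against control, 0 members were called in Ezh1 pre-rescue (0.0106% of all genes higher and 0% lower), 0 in Ezh2 pre-rescue (0% higher and 0% lower) and 0 in Ezh2 post-rescue (0.510% higher and 0.197% lower) by limma. At an unadjusted p under 0.05 there were 1, 1 and 4 members, for which the shares of all genes above are no measure. These comparisons share the control arrays. In Ezh2 pre-rescue even the introduced Ezh2, 1.59 ± 0.173 above control, was not called by limma (adjusted p = 0.183). The 0 calls there therefore cannot show that the members were at the control level. Cdkn2b read 8.95 and 8.92 with Ezh1 pre-rescue, 9.03 and 8.93 with Ezh2 pre-rescue, then 8.81 and 8.76 with Ezh2 post-rescue. All 6 values lie above both control arrays and both Ezh2 null arrays. The differences from control were 0.65, 0.70 and 0.50 ± 0.138 (adjusted p = 0.232, 0.23 and 0.22). Without control replicate 2 they were 0.88, 0.93 and 0.74 and were called (adjusted p = 0.0179, 0.0144 and 0.0324).

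**Figure D4:**
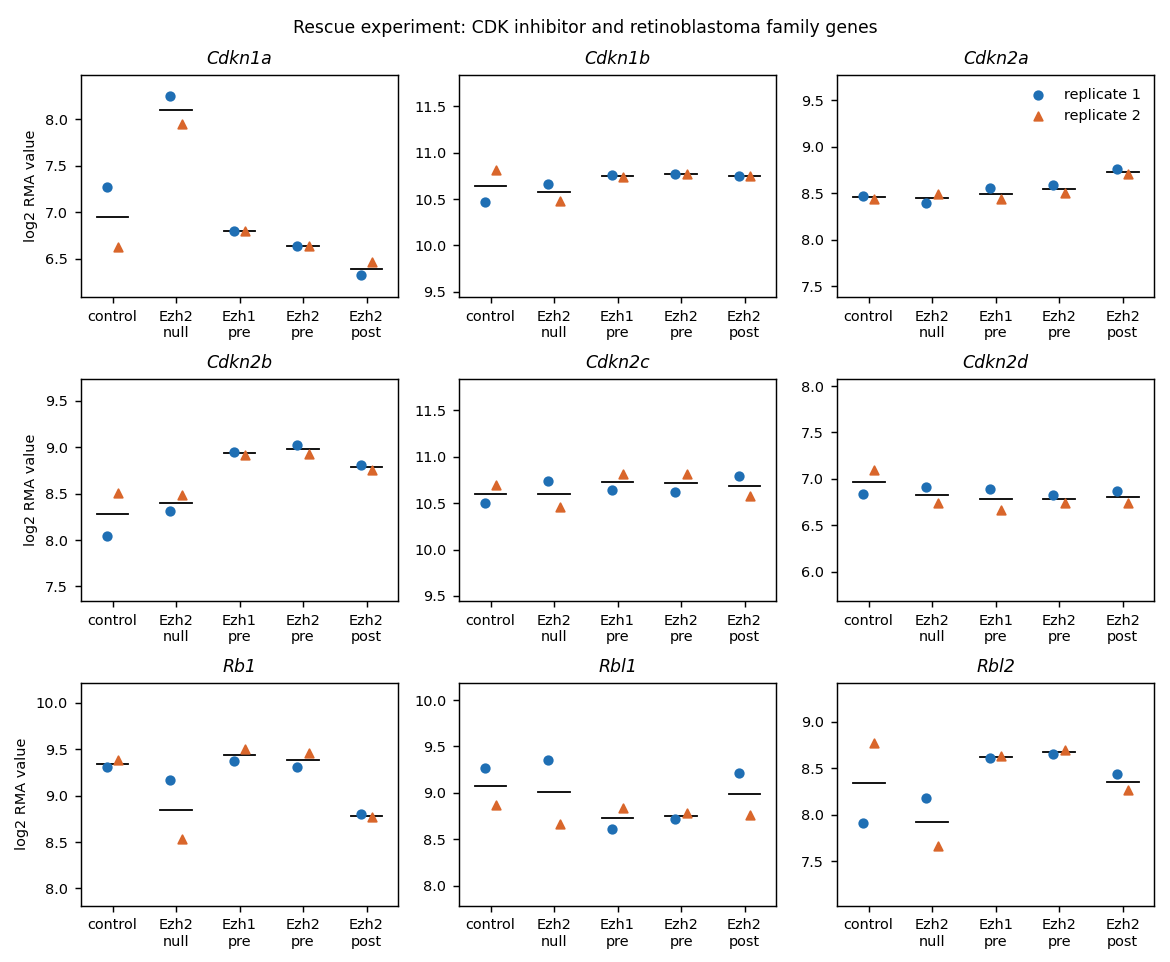
Log2 RMA values (y axis, panels of equal span) for each of the 9 genes; the x axis gives the 5 rescue experiment groups. There is 1 point per array and a bar at each group mean. Cdkn1a is near 8 in Ezh2 null cells and below 7 in all 3 rescued groups, Cdkn2b is higher in the rescued groups than in control and Ezh2 null cells, and control replicates stand apart in Cdkn1a, Cdkn2b and Rbl2.

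Against Ezh2 null cells Cdkn1a was lower in each rescued group. Both Ezh1 pre-rescue arrays read 6.79, the Ezh2 pre-rescue arrays 6.64 and 6.63, and the Ezh2 post-rescue arrays 6.32 and 6.46. All 6 values lie more than 1 log2 unit below both Ezh2 null arrays, and those of post-rescue below both control arrays as well. Cdkn1a fell by 1.30 ± 0.175 in Ezh1 pre-rescue (2.47-fold lower, adjusted p = 0.0181), by 1.46 ± 0.175 in Ezh2 pre-rescue (2.75-fold lower, adjusted p = 0.00799) and by 1.71 ± 0.175 in Ezh2 post-rescue (3.27-fold lower, adjusted p = 0.0123). Each call was lost without either array of the rescued group (1.20 to 1.40, 1.36 to 1.56 and 1.52 to 1.90 lower, adjusted p between 0.0759 and 0.178), and the Ezh1 call also without Ezh2 null replicate 2 (adjusted p = 0.0698). Against control, Cdkn1a in Ezh2 post-rescue was at −0.55 ± 0.175 (adjusted p = 0.316), and without control replicate 2 at −0.86 (adjusted p = 0.0406).

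In Ezh1 pre-rescue Cdkn1a was the 1 member called against Ezh2 null cells, lower, where 0.861% of all genes were higher and 1.44% lower. In Ezh2 pre-rescue 1 member was higher (Cdkn2b, by 0.58 ± 0.138, adjusted p = 0.0479) and 1 lower (Cdkn1a), with 3.15% and 4.00% of all genes. The Cdkn2b call was lost without any single array of either group (adjusted p between 0.136 and 0.256) and with the 2 groups alone (adjusted p = 0.0599). In Ezh1 pre-rescue Cdkn2b was 0.53 ± 0.138 above Ezh2 null cells (adjusted p = 0.0833), and called with centred arrays (0.59, adjusted p = 0.0296). In Ezh2 post-rescue 1 member was lower (Cdkn1a) and 0 higher by limma, with 0.409% and 0.191% of all genes. An unadjusted p under 0.05 was reached by 3 members, with no share of all genes to set beside them.

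**Figure D5:**
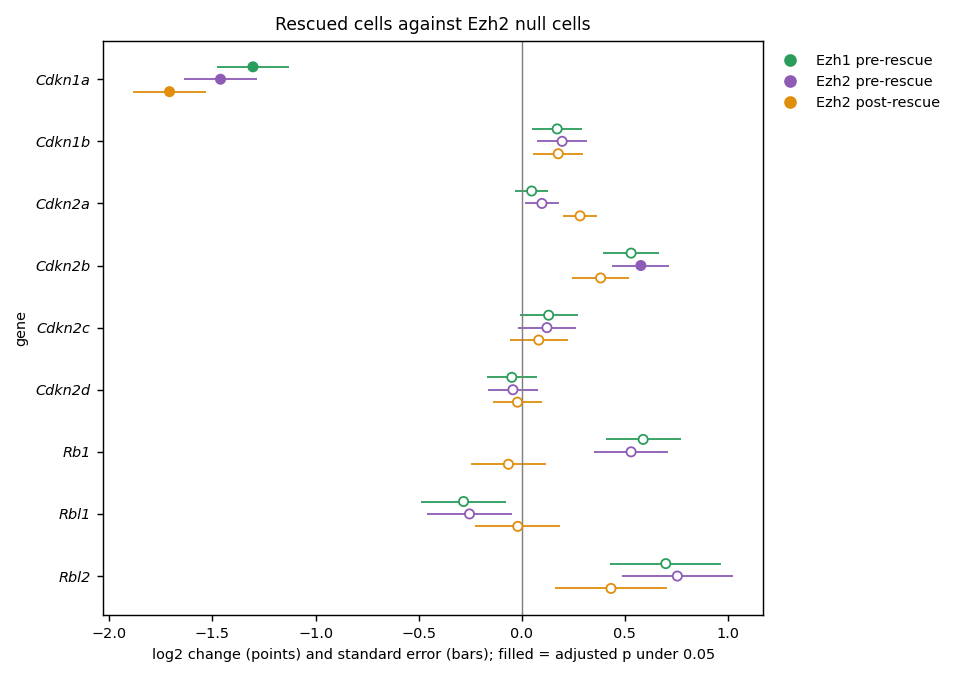
Log2 change with its standard error (x axis) of the 9 genes (y axis) in the 3 rescued groups against Ezh2 null cells; filled points passed an adjusted p of 0.05. Cdkn1a lies between −1.71 and −1.30 in all 3 groups, and Rb1 lies at 0.59 and 0.53 in the pre-rescues and at −0.06 in the post-rescue, none of these Rb1 values called.

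Rb1 read lower than in control in both Ezh2 post-rescue and Ezh2 null cells, though neither difference was called. The Ezh1 pre-rescue arrays read 9.38 and 9.50, the Ezh2 pre-rescue arrays 9.31 and 9.45, and the post-rescue arrays 8.80 and 8.77. The post-rescue arrays lie below all 6 arrays of the control and pre-rescue groups. Post-rescue was −0.56 ± 0.181 from control (adjusted p = 0.327) and −0.06 ± 0.181 from Ezh2 null cells (adjusted p = 0.931), so no difference was called. Against Ezh2 null cells the pre-rescues were not called, but without Ezh2 null replicate 1 they were, at 0.95 with Ezh1 (adjusted p = 0.007) and 0.89 with Ezh2 (adjusted p = 0.00667). Rbl2 in the same 3 groups read between 8.26 and 8.69, and Rbl1 between 8.62 and 9.21. Cdkn2a was highest in Ezh2 post-rescue, at 8.76 and 8.70, 0.28 ± 0.081 above control (adjusted p = 0.27). Of the E2F target genes 4 of 15 were lower than in Ezh2 null cells in each pre-rescue (Cdt1, Orc1, Mcm10 and Cdc25a, by 0.66, 0.93, 0.86 and 0.49 with Ezh1), and 0 were called in post-rescue by limma, with 3 at an unadjusted p under 0.05. Cdk6 was 2.99 ± 0.433 lower in Ezh2 pre-rescue than in Ezh2 null cells (adjusted p = 0.0139).

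The change in Ezh2 null cells was set against the change at day 32 in a fit of all 18 arrays. Here 1 member was called with a more positive effect in Ezh2 null cells (Cdkn2b) and 1 with a more negative one (Rbl1), against 2.48% and 5.64% of all genes. Cdkn2b differed by 1.51 ± 0.159 (adjusted p = 0.000172), from 0.12 in Ezh2 null cells and −1.39 at day 32. Rbl1 differed by −1.0 ± 0.231 (adjusted p = 0.0184), from −0.06 and 0.94. The Rbl1 call was lost without any 1 of 5 arrays (vehicle replicate 1, day 32 replicate 1 or 2, control replicate 1, Ezh2 null replicate 2), with adjusted p between 0.0602 and 0.0758, and the second Rbl1 probe set gave −0.80 ± 0.15 (adjusted p = 0.00627). For Cdkn1a the effects were 1.15 and 1.10, with a difference of 0.05 ± 0.200 (adjusted p = 0.934). Of the 15 E2F target genes 14 had a smaller effect in Ezh2 null cells, with a median difference of −0.99 against −0.02 over all genes (11 of 15 with centred arrays), and 6 of 10 E2F and DP factors did, E2f7 by 1.02 ± 0.142. Cdk6 differed by 0.01 ± 0.475 (adjusted p = 0.996).

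The genes with the pattern most like each member were found by Pearson's r over the 18 arrays, after the mean of each experiment was subtracted. The r values describe these arrays, which share groups and normalization, and carry no test. Closest to Rbl1 were Kntc1 (0.99), Mcm6 (0.99) and Kif15 (0.98), genes of the spindle checkpoint, of replication and of the spindle. Closest to Cdkn2b were Tmem87b (0.96), Pttg1ip (0.95) and Tbc1d17 (0.94), to Cdkn1a Calcrl, Pinx1 and Stc2 (0.92 to 0.93), and to Rbl2 P3h3 (0.98), Pink1 (0.96) and Cstad (0.96). Cdkn2d was most like Tma7 (0.97), Atxn7l3 and Mrpl14, and Cdkn2c most like Cep20 (0.89), Mir675 and Mettl9. Among the members themselves Cdkn2b ran against Rbl1 (r = −0.86), Cdkn1b ran with Rbl2 (0.89) and Cdkn2d with Rbl1 (0.79), and the r of Cdkn1a with the other members lay between −0.60 and 0.41.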

How the data were processed

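Total RNA was hybridized to Affymetrix Mouse Gene 1.1 ST arrays. Robust Multiarray Average (RMA) values from oligo are what the authors describe, and the deposited values are log2. Their methods also state that a linear model in limma removed a batch difference between the replicates of the rescue experiment. Whether the deposited values carry that correction is not given in the sources used here. No depth applies to arrays, and 2 arrays a group limit the precision.

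Of 28440 probe sets, 21217 carried 1 gene symbol, 1881 several and 5342 none; 21184 matched RefSeq by gene identifier. Each gene was read from its brightest probe set on average, giving 18820 genes, of which 1386 had over 1 to choose from. Members, lists and tests were chosen with earlier results of these data known.

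Models with 1 mean per group came from limma 3.58.1 (lmFit, eBayes; R 4.3.3), tested on simulated data. The time course had no block, the rescue experiment had the replicate number as a fixed term because of the stated batch, and a joint fit of 18 arrays had it for the rescue arrays. All p-values are two-sided, with Benjamini-Hochberg adjustment across all genes. RankProduct, the test of the methods, was not run. Genes named were the 9 members, Ezh2 and Ezh1, up to 4 genes per list and comparison with the smallest adjusted p, and 3 genes per member by likeness; marker genes at or below the array median, Cdkn1c, Cdt1 in the time course and the second probe sets were added after their values were seen. Deviations of same-numbered replicates correlated at −0.07 to 0.05 (time course) and −0.43 to 0.54 (rescue experiment), where 6 of 10 correlations were negative. Alternatives were median centring, quantile normalization, a filter on dim genes, the mean of probe sets, another variance prior, a 2-fold threshold, the replicate block, only the 2 groups compared, and each array left out.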

Additional observations from a re-analysis of the deposited data

Results flagged for a closer look

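The change in Ezh2 null cells against control differed from the change at day 32 after tamoxifen against vehicle for 2 of the 9 genes by a direct test. Cdkn2b changed by 0.12 in Ezh2 null cells and by −1.39 at day 32, a difference of 1.51 ± 0.159 (limma on 18 arrays, adjusted p = 0.000172). Rbl1 changed by −0.06 and by 0.94, a difference of −1.0 ± 0.231 (limma, adjusted p = 0.0184), which was lost without any 1 of 5 single arrays. The experiments were normalized apart and the labels give no time after deletion for the Ezh2 null cells, so experiment, drug and time cannot be told apart.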

How the results depend on the processing

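Counts below are members called of 9. At a 2-fold threshold, with an adjusted p under 0.05 or under 0.15, 1 of 3 members remained called at day 5, 1 of 5 at day 18, 2 of 6 at day 32, 0 of 6 for day 18 against day 5, 0 of 1 for day 32 against day 18, 1 of 2 for Ezh2 pre-rescue against Ezh2 null and 1 of 2 for the difference between experiments. At day 5 median centring gave 6 members (6.47% of all genes higher and 21.9% lower) and quantile normalization 5 (8.73% and 8.38%). For Ezh1 pre-rescue against Ezh2 null each gave 2. There 2.92% of all genes were higher and 1.14% lower with centring, and 1.94% and 1.65% with quantile normalization. The variance prior with trend and robust fitting gave 2 for day 32 against day 18. With only the 2 groups compared, Ezh2 null against control gave 0 and Ezh2 pre-rescue against Ezh2 null 1. Leaving out 1 array gave 1 to 3 for day 5 against vehicle, 4 to 6 for day 18 against vehicle, 4 to 5 for day 32 against vehicle, 5 to 6 for day 18 against day 5, 1 throughout for day 32 against day 18, 0 to 2 for Ezh2 null against control, 0 to 1 for Ezh1 pre-rescue against control, 0 to 1 for Ezh2 pre-rescue against control, 0 to 2 for Ezh2 post-rescue against control, 0 to 2 for Ezh1 pre-rescue against Ezh2 null, 0 to 2 for Ezh2 pre-rescue against Ezh2 null, 0 to 1 for Ezh2 post-rescue against Ezh2 null, 1 to 3 for effect of Ezh2 null minus effect of day 32. The low count at day 5 came without day 5 replicate 2, the high ones for the rescued groups against control without control replicate 2, and for Ezh2 null against control the 2 came without control replicate 1 and the 0 without Ezh2 null replicate 2. The replicate block in the time course left 3, 5, 6, 6 and 1 members called in the 5 comparisons, as without it, and the rescue fits without the block changed 0 calls. No change called by both a main fit and an alternative turned its direction. The filter on dim genes and the mean of probe sets moved no count by over 1.5 times. The cause of the moves was not tested. Fits with fewer arrays or groups also have fewer degrees of freedom. Cdkn1c lay below the array median throughout the time course and Cdkn1a near it on vehicle, so signal over background limits their folds.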
